A study of Mus musculus with 11 samples.

Results

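The Gimap genes (GTPases of the immunity-associated proteins) form a family of 8 measured genes, Gimap1 and Gimap3 to Gimap9, out of 22180 genes with a microarray probe set of exactly 1 gene symbol. They were taken by name, and 9 probe sets carried their symbols, 2 for Gimap1 and 1 for each of the other 7 genes. The family was chosen by a measured value: it was picked for description after Gimap1 had been seen to be lower after CpG in one of the cell populations, so its values in that comparison are given without a test. Where a gene had several probe sets, the one with the highest mean over the 11 arrays stood for it.

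Gimap proteins are GTPases of lymphocytes that share a guanine-nucleotide-binding AIG1 domain, and several are anchored to intracellular membranes. Mature T cells carry much of the family's RNA, and loss of Gimap1 or Gimap5 in mice reduces the survival of mature T and B cells. Gimap3 and Gimap5 are closely related members that have been linked to Bcl2-family proteins, Gimap4 to the progress of T-cell apoptosis, and Gimap6 to autophagy.

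The cells were CLPs (common lymphoid progenitors, from which lymphocytes develop in bone marrow) of C57BL/6 mice. The mice received either PBS or CpG1826, an oligonucleotide ligand of Toll-like receptor 9, at 50 µg on alternate days for 10 days, and CLPs were then sorted by flow cytometry as Ly-6D+ or Ly-6D-. Ly-6D is a surface protein of CLPs biased to B-cell fate. The series held 3 arrays of Ly-6D- CLPs after PBS, 3 of Ly-6D- CLPs after CpG, 2 of Ly-6D+ CLPs after PBS and 3 of Ly-6D+ CLPs after CpG. No genotype other than the strain, and no age, is given in the sources used here. Whether a replicate was its own animal or a pool is also not stated there, so a p-value measures only the spread between these samples.

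All levels are RMA values on the log2 scale, so a difference of 1 is a 2-fold change. The array medians lay between 3.85 and 3.96, and the number of arrays limits the precision. Ly6d separated the populations on every array, at 12.55 to 12.61 in Ly-6D+ and 7.47 to 8.50 in Ly-6D- CLPs, and the progenitor genes Il7r (9.05 to 10.85) and Flt3 (10.36 to 10.87) were measured in all groups. On the second principal component, with 15.8% of the variance, Ly-6D- CpG replicate 3 lay at -0.7, between the other 2 arrays of its group (19.4 and 22.7) and the Ly-6D- PBS arrays (-22.6 to -15.2). Ly-6D+ CpG replicate 3 lay at -0.4, likewise between the other 2 arrays of its group (11.6 and 15.5) and the Ly-6D+ PBS arrays (-9 and -4.3). The differences that involve Ly-6D- CpG arrays are therefore also given without Ly-6D- CpG replicate 3. For CpG in Ly-6D+ CLPs, ranges over the fits with 1 array left out are given.

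In the reference gene order of GRCm38.p6 the 8 genes lie side by side on chromosome 6, as Gimap8, Gimap9, Gimap4, Gimap6, Gimap7, Gimap1, Gimap5 and Gimap3, with 0 other protein-coding genes between them. Gimap6 and Gimap3 lie on the minus strand and the other 6 genes on the plus strand. The 250 bases before the start site are shown for Gimap1 and Gimap6, whose levels were the most alike of any pair of members over the arrays, and for Gimap4, which differed in direction from them. They are RefSeq sequences of GRCm38.p6, at chr6:48738797-48739046 on the plus strand for Gimap1, chr6:48708245-48708494 on the minus strand for Gimap6 and chr6:48684328-48684577 on the plus strand for Gimap4, written 5′ to 3′ along each gene. Capitals mark matches to any of the 9 motifs described next.
Gimap1: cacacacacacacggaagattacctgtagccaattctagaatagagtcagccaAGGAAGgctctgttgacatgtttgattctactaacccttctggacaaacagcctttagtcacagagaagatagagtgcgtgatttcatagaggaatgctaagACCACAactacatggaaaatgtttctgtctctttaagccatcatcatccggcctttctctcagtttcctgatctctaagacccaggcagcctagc
Gimap6: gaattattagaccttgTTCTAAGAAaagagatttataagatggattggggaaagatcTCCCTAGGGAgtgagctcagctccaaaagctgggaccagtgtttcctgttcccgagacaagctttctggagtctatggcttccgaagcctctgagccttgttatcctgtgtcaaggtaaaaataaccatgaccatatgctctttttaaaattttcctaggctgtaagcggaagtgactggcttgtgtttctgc
Gimap4: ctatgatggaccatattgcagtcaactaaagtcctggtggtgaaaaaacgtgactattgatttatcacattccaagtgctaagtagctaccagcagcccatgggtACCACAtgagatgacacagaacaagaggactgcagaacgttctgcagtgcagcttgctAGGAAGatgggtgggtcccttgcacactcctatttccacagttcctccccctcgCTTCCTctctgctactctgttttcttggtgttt

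The motifs were searched on both strands, from 250 bases before to 50 bases after the start, in 9 windows for the 8 members (Gimap8 has 2, which overlap) and in all 32851 windows of the table. The ETS motif AGGAAG was in 7 of the 9 windows, against 35.4% of all windows. It was in a window of every member but Gimap6, and for Gimap8 in only 1 of its 2 windows. Only this spelling was searched, so other forms of the GGAA core, such as CGGAAGT in the Gimap6 sequence above, were not counted. In Gimap1 the motif AGGAAG began 197 bases before the start and again just after the start, and in Gimap4 87 and 33 bases before it. The RUNX core TGTGGT was in the windows of Gimap1, Gimap4 and Gimap7 (3 of 9, against 16.8%). The E-box CAGNTG was in 4 of 9 windows, against 51.4%. The palindromic EBF1 motif was found in the Gimap6 window, 193 bases before the start (1 of 9, against 0.904%). The interferon-gamma-activated sequence TTCNNNGAA was in 4 of 9 (against 8.30%), those of Gimap3, Gimap6, Gimap7 and Gimap8, and in one Gimap8 window it overlapped the ETS match. The interferon-stimulated response element and the GATA motif AGATAA were in 0 of the 9 windows, against 3.44% and 11.2% of all windows. The FOXO motif TGTTTAC (3.65% of all windows) and the Ikaros motif TGGGAA (25.6%) were each in the Gimap3 window. A match is a description of letters and not of binding.

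The first comparison was of Ly-6D+ with Ly-6D- CLPs after PBS, that is, of the populations as they stood without CpG. Gimap4, the member linked to T-cell apoptosis, was higher in Ly-6D+ CLPs. It was at 8.09 and 8.15 in the 2 Ly-6D+ arrays and at 6.08, 5.51 and 5.48 in the 3 Ly-6D- arrays. No array of one population came near the range of the other. The difference was 5.39-fold (2.43 on the log2 scale, SE 0.25, limma adjusted p = 5.40e-04). It passed whichever array was left out (adjusted p 6.22e-04 to 0.0105).

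The other 7 members did not pass in this comparison, so 1 of 8 passed, against 1.98% of all 22180 genes. Their differences ran from 0.01 for Gimap1 to 0.72 for Gimap7. The median over the 8 members was 0.37, and over all genes it was -0.0090. The arrays of the 2 populations did not overlap for 5 of the 8 members, all higher in Ly-6D+ CLPs, against 12.9% of all genes in that direction. Gimap9 was at 8.65 and 8.64 in Ly-6D+ CLPs and at 8.22, 8.33 and 8.20 in Ly-6D- CLPs, a difference of 0.39 that did not pass (SE 0.12, adjusted p = 0.159). In its brighter probe set Gimap1 was level between the populations, at 7.20 and 7.41 in Ly-6D+ CLPs and 7.41, 7.18 and 7.29 in Ly-6D- CLPs. The 95% interval of that difference ran from -0.29 to 0.32. The dimmer probe set of Gimap1 was 0.84 higher in Ly-6D+ CLPs and did not pass (SE 0.57, limma adjusted p = 0.663). For Gimap6, at 8.36 and 8.34 against 8.29, 8.14 and 8.11, the interval ran from -0.15 to 0.49.

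After CpG the difference between the populations was larger in value than after PBS for 7 of the 8 members, although for 0 of them did the change in that difference pass its own test, given with the CpG effects. Gimap4 (2.11, SE 0.22, limma adjusted p = 5.77e-04), Gimap5 (0.87, SE 0.13, adjusted p = 0.00514), Gimap9 (0.66, SE 0.11, adjusted p = 0.00891) and Gimap6 (0.76, SE 0.13, adjusted p = 0.0112) were higher in Ly-6D+ CLPs. Gimap1 is given as a description, because its low Ly-6D- CpG values led to the choice of the family. It was 0.90 higher in its brighter probe set and 0.76 (SE 0.51) higher in its dimmer one. Without Gimap1, 4 of 7 members passed, against 2.14% of all genes, and their median was 0.87 against -0.0040 for all genes. The arrays did not overlap for 6 of these 7 members, all higher in Ly-6D+ CLPs, against 7.89% of all genes in that direction. The exception was Gimap7, where a Ly-6D- array at 7.82 lay just above a Ly-6D+ array at 7.80. This comparison uses the same Ly-6D- CpG arrays that led to the choice of the family. Over the 11 arrays Gimap6, Gimap5 and Gimap9 ran with Gimap1 (Pearson's r = 0.97, 0.88 and 0.86). Leaving out Gimap1 therefore does not free the counts and p-values after CpG from that choice, and they are descriptions.

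The members that did not pass after CpG had differences of similar size with a wider spread. They were Gimap3 (0.98, SE 0.23, limma adjusted p = 0.0664), Gimap7 (1.06, SE 0.27, adjusted p = 0.0831) and Gimap8 (0.81, SE 0.24, adjusted p = 0.146). Gimap3 was dim in the Ly-6D- CpG arrays (3.50 to 3.92), near the array medians of 3.85 to 3.96. Gimap3 passed without Ly-6D+ CpG replicate 1 (adjusted p = 0.0393), and Gimap7 passed when replicate 3 of Ly-6D+ CpG (0.0465) or replicate 3 of Ly-6D- CpG (0.0148) was left out. Gimap6 no longer passed when Ly-6D+ CpG replicate 2 (0.0501) or replicate 2 of Ly-6D- CpG (0.0532) was left out. Without Ly-6D- CpG replicate 3 the differences were 2.07 for Gimap4, 0.97 for Gimap5, 0.88 for Gimap6 and 0.76 for Gimap9, and all 4 passed. They were then 0.85 for Gimap3, 0.93 for Gimap8 and 1.36 for Gimap7, and, as a description, 1.03 for Gimap1.

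**Figure D1:**
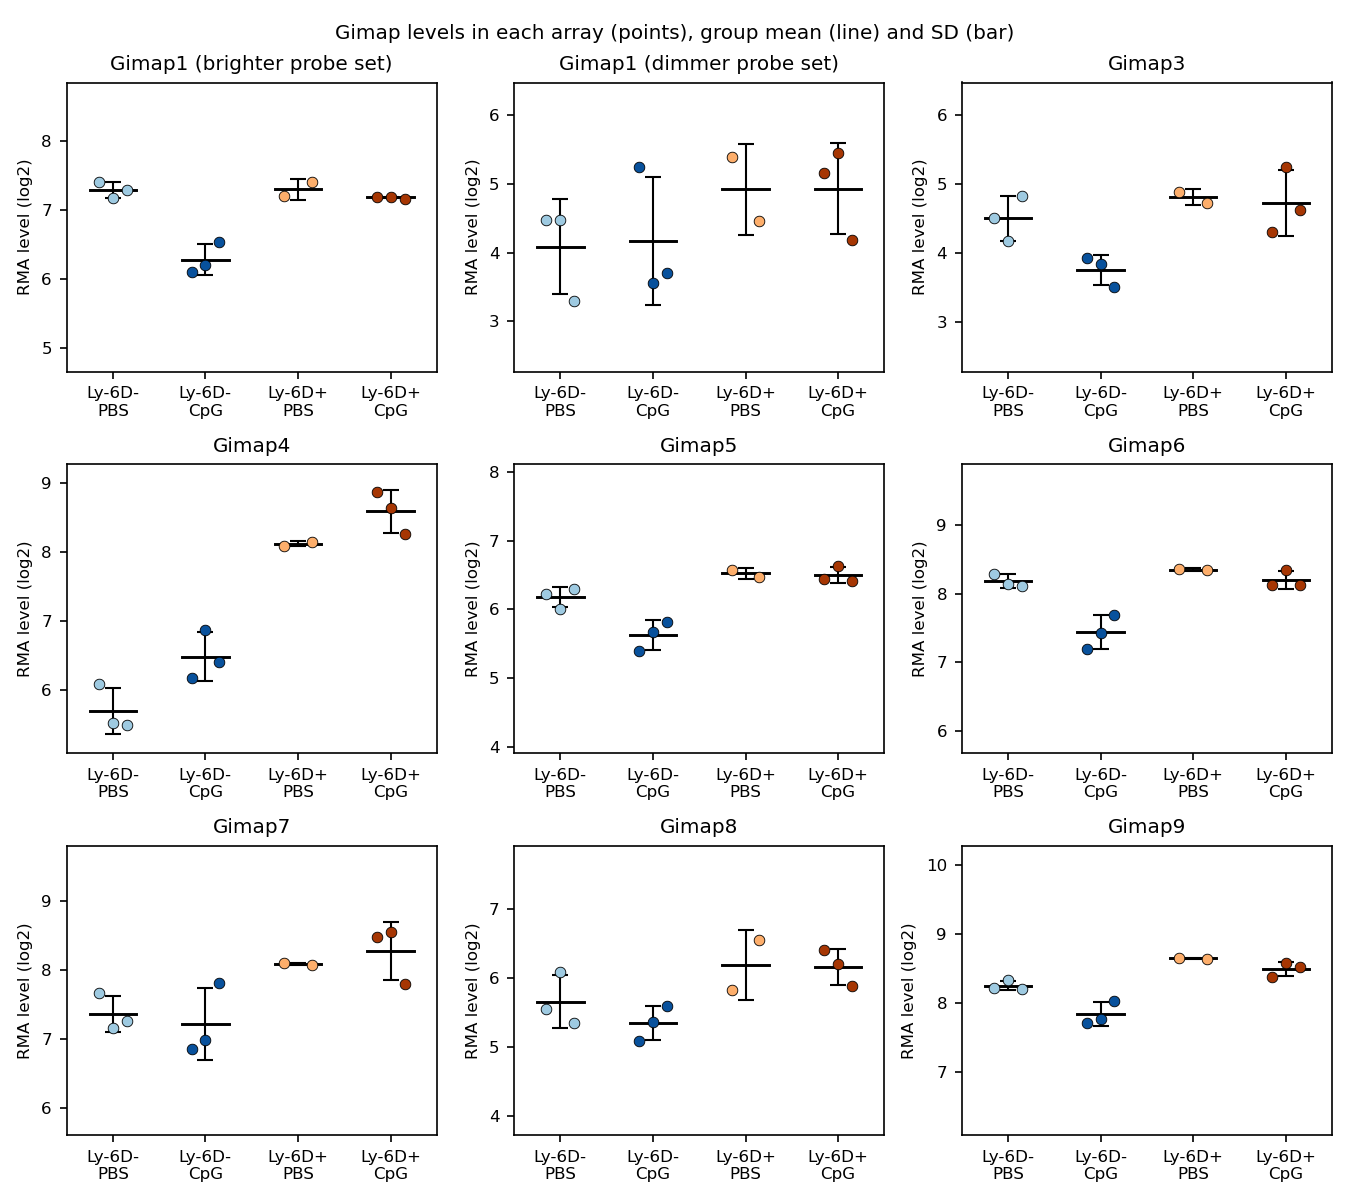
Each panel plots the RMA level (log2) of 1 Gimap probe set for every array in the 4 groups, with the group mean as a line and the SD as a bar; each axis spans the same number of log2 units. Gimap1 in its brighter probe set lies between 6.10 and 6.54 in the 3 Ly-6D- CpG arrays and at 7.17 or above in the other 8 arrays, while Gimap4 is lowest in Ly-6D- PBS arrays.

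In Ly-6D- CLPs, CpG went with lower mean levels of 7 of the 8 Gimap genes, 5 of them without overlap between arrays, and with a higher level of Gimap4. This comparison drew attention to the family through Gimap1, and what follows describes it without a test. Gimap1 was at 7.41, 7.18 and 7.29 after PBS and at 6.10, 6.21 and 6.54 after CpG. All 3 CpG arrays were lower than every PBS array, and the difference of means was -1.01 (SE 0.12), or -1.14 without Ly-6D- CpG replicate 3. Ranked from the lowest, the Ly-6D- CpG group mean (6.28 ± 0.23, SD, n = 3) stood alone. It was followed by Ly-6D+ CpG (7.19 ± 0.012, SD, n = 3), Ly-6D- PBS (7.29 ± 0.11, SD, n = 3) and Ly-6D+ PBS (7.31 ± 0.15, SD, n = 2). The arrays of the PBS groups overlapped, and the Ly-6D+ CpG arrays (7.17 to 7.19) lay just under the Ly-6D+ PBS arrays and overlapped those of Ly-6D- PBS.

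The dimmer probe set of Gimap1 did not show this pattern. It was at 4.48, 4.48 and 3.29 after PBS and at 5.24, 3.56 and 3.71 after CpG in Ly-6D- CLPs, a difference of 0.09 with an SE of 0.51. Its groups overlapped throughout, with SDs of 0.66 to 0.93 in the 4 groups. The mean of both probe sets gave -0.46 (SE 0.25). For CpG in Ly-6D+ CLPs the dimmer probe set gave a difference of 0.0070 (SE 0.57). Where neither the dimmer probe set nor the mean of both is named, values of Gimap1 are those of the brighter probe set.

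Gimap6, the member linked to autophagy, was at 8.29, 8.14 and 8.11 after PBS and at 7.20, 7.43 and 7.69 after CpG in Ly-6D- CLPs. Its difference was -0.74 (SE 0.13), or -0.87 without Ly-6D- CpG replicate 3. Gimap5 went from 6.22, 6.01 and 6.29 to 5.39, 5.67 and 5.82 (-0.55, SE 0.13), and its close relative Gimap3 from 4.50, 4.18 and 4.82 to 3.92, 3.84 and 3.50 (-0.75, SE 0.23). For these genes and for Gimap9 (-0.42, SE 0.11) all CpG arrays lay below all PBS arrays. The Gimap3 values after CpG lay near the array medians of 3.85 to 3.96, so Gimap3 was dim there. Gimap7 (-0.14, SE 0.27) and Gimap8 (-0.31, SE 0.24) overlapped between treatments. For Gimap7 the CpG arrays stood at 6.85, 6.99 and 7.82, so replicate 3 lay above all 3 PBS arrays (7.16 to 7.67), and without it the difference was -0.44. Without Ly-6D- CpG replicate 1 it was 0.04 and without Ly-6D- PBS replicate 1 it was 0.0080, so the direction for Gimap7 rests on single arrays. For Gimap8 the difference ran from -0.47 to -0.10 when 1 array was left out. Without Ly-6D- CpG replicate 3 it was -0.62 for Gimap3, 0.83 for Gimap4, -0.65 for Gimap5, -0.43 for Gimap8 and -0.52 for Gimap9.

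Gimap4 went the other way. It was at 6.08, 5.51 and 5.48 after PBS and at 6.17, 6.87 and 6.40 after CpG in Ly-6D- CLPs, a difference of 0.79 (SE 0.22) with no overlap, the highest PBS array at 6.08 lying just under the lowest CpG array at 6.17. Its order over the groups was Ly-6D- PBS, Ly-6D- CpG, Ly-6D+ PBS and Ly-6D+ CpG from the lowest to the highest, with no array of one group inside the range of the next.

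As a description from which nothing is read, since the comparison led to the choice of the family, 1 of the 7 members other than Gimap1 (Gimap6, lower) lay past the adjusted threshold in Ly-6D- CLPs, where 0.546% of all genes did. Gimap6 stayed past it when Ly-6D- CpG replicate 3 was left out, and not when any of the other 10 arrays was. The arrays of these 7 did not overlap for 4 lower and 1 higher member, where 7.20% and 8.50% of all genes did not. Their median was -0.42, and that of all genes -0.0010. In bulk RNA of sorted cells, fewer cells with a transcript and less RNA per cell cannot be told apart.

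In Ly-6D+ CLPs the mean Gimap levels after CpG lay within 0.47 of those after PBS, with wide intervals for several members. By limma 0 of 8 members passed, against 0.0271% of all genes (6 genes), and 0 of 8 had an unadjusted p under 0.05. With a variance trend and robust estimation the count was 0 as well. The largest difference was that of Gimap4, at 8.87, 8.64 and 8.26 after CpG against 8.09 and 8.15 after PBS (0.47, SE 0.25, limma adjusted p = 0.820). The others ran from -0.15 for Gimap6 and Gimap9 to 0.19 for Gimap7, and the members' median was -0.06 against 0.0030 for all genes. The arrays did not overlap for 1 higher and 2 lower members, against 10.7% and 9.76% of all genes. For Gimap1, at 7.19, 7.19 and 7.17 after CpG against 7.20 and 7.41 after PBS, the difference was -0.12 and its 95% interval ran from -0.43 to 0.19. For Gimap5 (6.44, 6.63 and 6.42 against 6.58 and 6.47) the interval ran from -0.35 to 0.29, and for Gimap3 from -0.66 to 0.50. It ran from -0.07 to 1.01 for Gimap4, from -0.47 to 0.855 for Gimap7 and from -0.63 to 0.56 for Gimap8. With 1 array left out, the difference ran from 0.33 to 0.64 for Gimap4, 0.05 to 0.43 for Gimap7 and -0.39 to 0.325 for Gimap8. In those fits, too, 0 of 8 members passed. Over all genes, 16 passed without Ly-6D+ CpG replicate 3, against 6 in the main fit.

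The CpG effects of the populations were compared as the difference of the 2 effects, Ly-6D+ minus Ly-6D-. This difference contains the Ly-6D- arrays that led to the choice of the family, and Gimap6 and Gimap5 ran with Gimap1 over the arrays. The counts and p-values below are therefore descriptions for all 8 members. By limma 0 of the 8 members passed, as did 0 of all genes (0% of 22180), with 2 of the 7 members other than Gimap1 and 1413 genes at an unadjusted p under 0.05, and 0 members passed with a variance trend and robust estimation. For Gimap6 the difference of effects was 0.59 (SE 0.19, adjusted p = 0.663) and for Gimap5 0.52 (SE 0.19, adjusted p = 0.725). For Gimap4 it was -0.32 (SE 0.33, adjusted p = 0.910), with a 95% interval from -1.05 to 0.41. Gimap1, as a description, had a difference of effects of 0.89 (SE 0.18) in its brighter probe set and -0.08 (SE 0.77) in its dimmer one. Without Ly-6D- CpG replicate 3 the differences of effects were 0.72 for Gimap6, 0.61 for Gimap5, -0.36 for Gimap4 and, as a description, 1.02 for Gimap1, and those of Gimap3, Gimap7, Gimap8 and Gimap9 were 0.54, 0.64, 0.40 and 0.36; 0 of the 8 members passed by limma. A larger response of these genes in Ly-6D- CLPs was therefore not shown by this comparison.

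**Figure D2:**
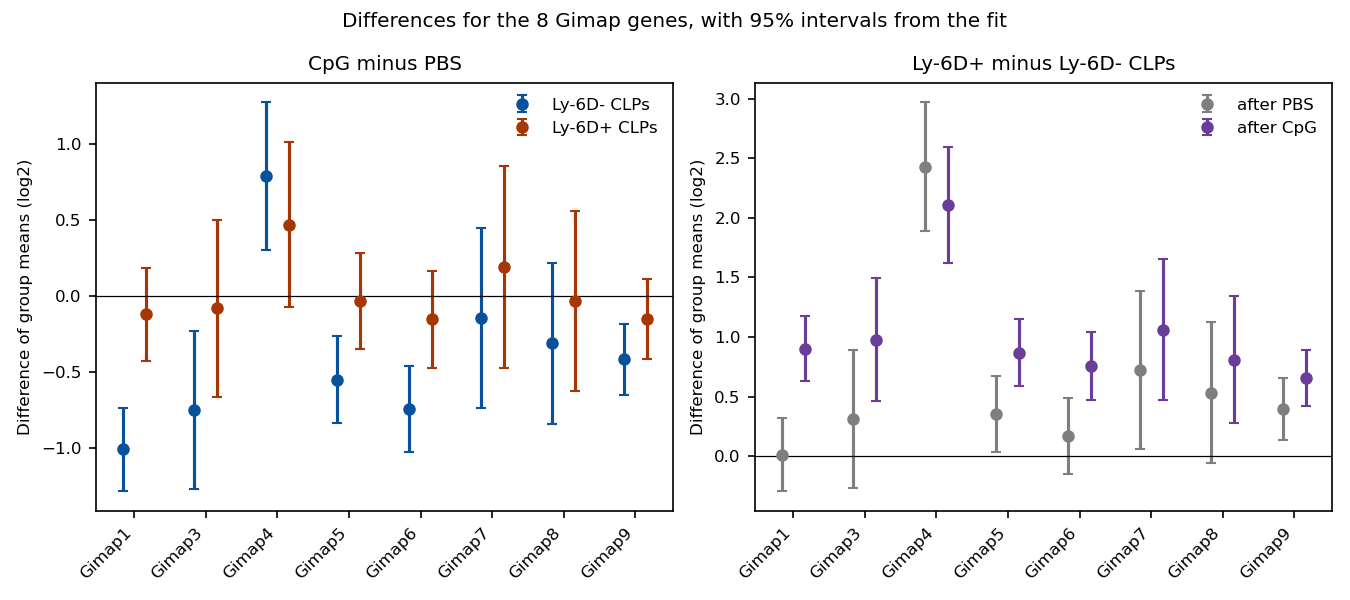
Points are differences of group means (log2) for each of the 8 Gimap genes, and bars are 95% intervals from the limma fit, for CpG minus PBS in each population (left panel) and for the Ly-6D+ minus the Ly-6D- population after each treatment (right panel). For CpG in Ly-6D- CLPs, a description only, the points run from -1.01 (Gimap1) to 0.79 (Gimap4), and for the populations after CpG they run from 0.66 (Gimap9) to 2.11 (Gimap4).

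The genes flanking the cluster were set beside it, 5 protein-coding genes on each side, of which 8 had a probe set of their own. After CpG, 0 of these 8 differed between the populations by limma, with 2 at an unadjusted p under 0.05 and differences from -0.24 (Tmem176b) to 0.31 (Lrrc61), while the Gimap differences ran from 0.66 to 2.11. After PBS, 2 of the 8 neighbours were lower in Ly-6D+ CLPs. They were Tmem176a, a membrane protein gene beyond the Gimap3 end, with Tmem176b between them (-0.72, SE 0.11, limma adjusted p = 0.00685), and the predicted gene Gm5111 beyond the Gimap8 end (-0.59, SE 0.12, adjusted p = 0.0357), whereas Gimap4 was higher. For CpG in Ly-6D- CLPs the neighbours' median was -0.22 and that of the Gimap genes other than Gimap1 was -0.42. On the Gimap8 side Gm5111 (-0.52), Lrrc61 (-0.32) and Repin1 (-0.27) had CpG arrays below all PBS arrays, and Zfp775 (-0.30) did not. On the Gimap3 side Tmem176b (0.01), Tmem176a (-0.08), Aoc1 (-0.17) and Doxl1 (0.11) did not. That is 3 of 8 neighbours, against 7.20% of all genes in that direction.

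**Figure D3:**
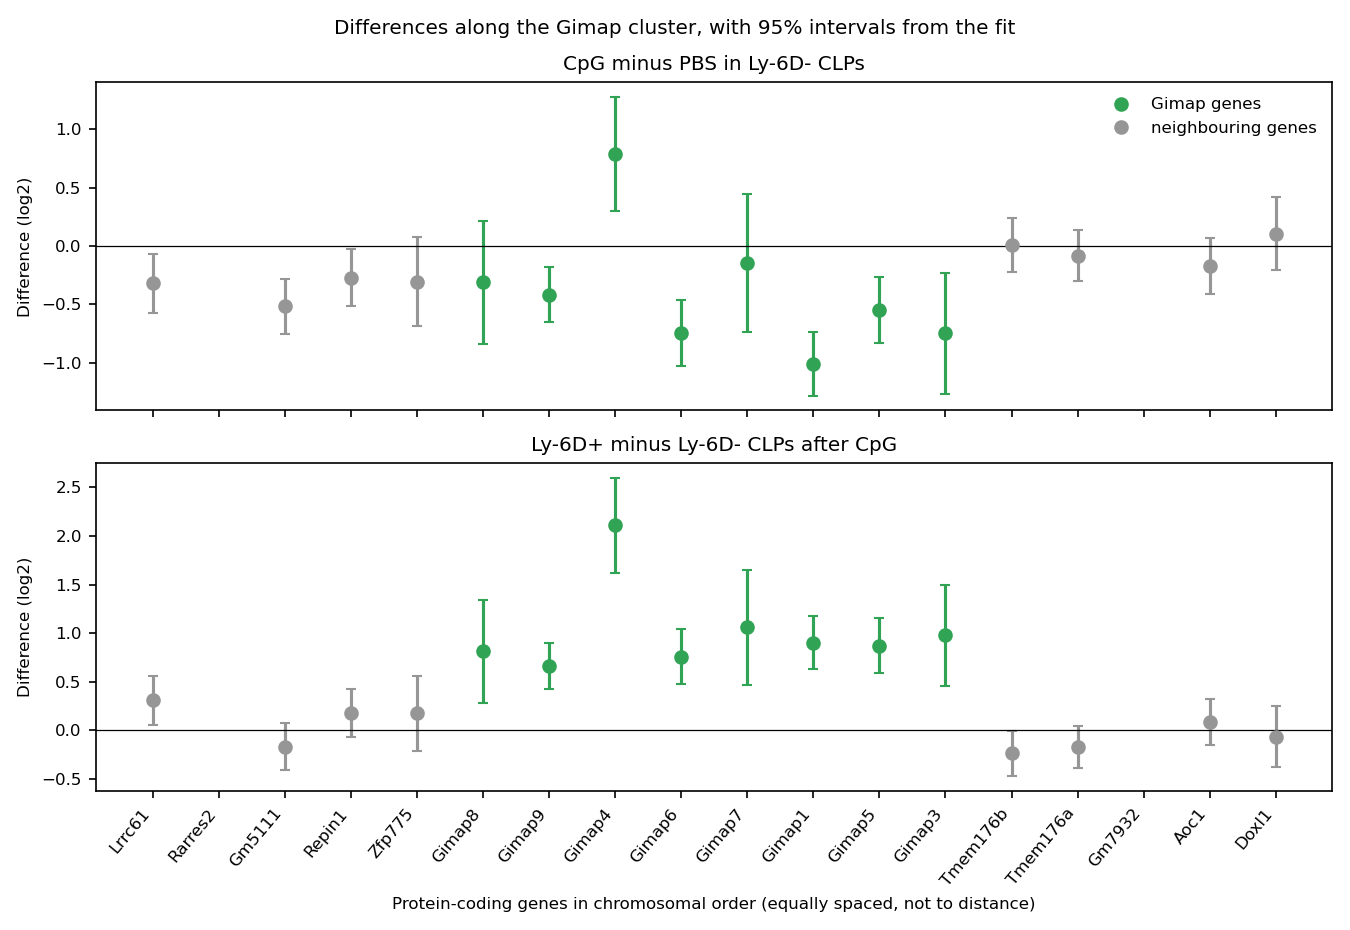
Differences of group means (log2) with 95% intervals from the limma fit are plotted for the Gimap genes and their flanking protein-coding genes in chromosomal order, equally spaced; Rarres2 and Gm7932 have no point. For Ly-6D+ minus Ly-6D- CLPs after CpG (lower panel) the 8 Gimap genes lie between 0.66 and 2.11 and the neighbours between -0.24 and 0.31; for CpG in Ly-6D- CLPs (upper panel) Gimap4 is the single Gimap gene above 0.

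The members varied together to different degrees. Over the 11 arrays, which fall into 4 groups, Pearson's r of Gimap1 was 0.97 with Gimap6, 0.88 with Gimap5, 0.86 with Gimap9, 0.74 with Gimap3 and 0.27 with Gimap4. Gimap5 had r = 0.94 with both Gimap6 and Gimap9. Gimap4 was closest to Gimap7 (0.81). For deviations from the group means, r was 0.84 between Gimap6 and Gimap7, 0.81 between Gimap5 and Gimap6 and 0.77 between Gimap1 and Gimap6, and -0.23 between Gimap1 and Gimap3. These values share arrays and their normalisation and are descriptions. Gimap paralogues have related sequences, and cross-hybridisation between their probes was not examined here.

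Among 10305 genes above the median level, leaving out the Gimap genes, predicted genes and small RNAs, the 5 with the profile closest to Gimap1 over the 11 arrays were Rnf167, a ubiquitin ligase (r = 0.98), Tapt1 (0.97), Tbc1d10c, a GTPase-activating protein of lymphocytes (0.96), Jakmip1 (0.96) and Paip2, a repressor of translation (0.96). The 5 closest to the mean profile of the other 7 members were Cox6a2 (r = 0.97), Gphn (0.96), Blnk, an adaptor of B-cell receptor signalling (0.96), Gpcpd1 (0.96) and Gpr174, a lysophosphatidylserine receptor (0.96). In Ly-6D- CLPs Rnf167 was at 8.45 ± 0.16 with PBS and 7.81 ± 0.20 with CpG (SD, n = 3 each). Blnk was at 9.17 ± 0.17 and 8.54 ± 0.39 there (SD, n = 3 each), and at 10.68 ± 0.035 (SD, n = 2) and 10.46 ± 0.022 (SD, n = 3) in Ly-6D+ CLPs.

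Since Gimap RNA is abundant in T cells, markers of T cells were read beside it. The mean level of 13 measured T-cell markers was 4.66 to 4.79 in Ly-6D- PBS, 4.72 to 4.82 in Ly-6D- CpG, 4.93 to 4.98 in Ly-6D+ PBS and 4.96 to 5.27 in Ly-6D+ CpG arrays. It thus overlapped between treatments in each population and was higher in Ly-6D+ than in Ly-6D- arrays. Cd3g, a chain of the T-cell receptor complex, was at 2.65 to 3.71 over all arrays, and Cd3e at 2.84 to 3.85. Other markers of the list were brighter, such as Cd3d at 3.52 to 5.47, Cd28 at 5.96 to 7.81 and Lat at 7.83 to 8.99. RMA levels have no true 0. For CpG in Ly-6D- CLPs 0 of 13 T-cell markers passed by limma, with 3 at an unadjusted p under 0.05, namely Lat, lower (-0.78, SE 0.15, adjusted p = 0.0538), and Cd8b1 (0.89, SE 0.23, adjusted p = 0.135) and Cd3d (0.82, SE 0.32, adjusted p = 0.330), both higher in value. After CpG, 10 of 13 T-cell markers had higher values in Ly-6D+ CLPs. The arrays did not overlap for 6 of them, against 7.89% of all genes in that direction. Of the 13, 1 passed, against 2.14% of all genes, namely the co-stimulatory receptor Cd28 (1.15, SE 0.20, limma adjusted p = 0.0144). The part of these markers in the Gimap differences was not tested.

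Other cell-type markers moved with the comparison in Ly-6D- CLPs. The mean of 12 myeloid markers was 8.24 to 8.40 after PBS and 8.49 to 8.996 after CpG, and Ccr2 (1.57) and Ly6c2 (1.08) rose (2 of 12, limma adjusted p = 0.0101 and 0.0300). The mean of 10 CLP genes was 9.72 to 9.74 after PBS and 9.17 to 9.47 after CpG. Of these, Il7r and Rag2 passed as lower (2 of 10, limma adjusted p = 0.0300 and 0.0221). All 10 were lower in value, with a median of -0.39. For 8 of the 10 the CpG arrays lay below all PBS arrays, against 7.20% of all genes. The part of the myeloid and CLP genes in the lower Gimap levels was not tested. In Ly-6D+ CLPs the myeloid means overlapped between treatments (7.81 to 8.18 and 7.91 to 8.34), as did the CLP means. Of 7 mature B-cell, 8 dendritic cell and 5 erythroid and megakaryocyte markers, 0 passed for CpG in Ly-6D- CLPs by limma, with 3, 6 and 0 at an unadjusted p under 0.05, and of 11 NK and innate lymphoid markers 1 was lower, Il7r. Between the populations, 3 of 8 dendritic cell markers were higher in Ly-6D+ CLPs after PBS and 5 of 8 after CpG, led by Siglech (2.77 and 2.95). Of the mature B-cell markers 3 of 7 were higher after PBS and 1 of 7 after CpG, led by the B-cell receptor chain Cd79a (4.85 and 5.21). Of the myeloid markers 1 of 12 was lower after PBS, Ccr2 (-1.25), and 3 of 12 after CpG, Ccr2 (-1.91), Mpo (-1.78) and Csf1r (-1.69). Over all genes, 0.546% passed for CpG in Ly-6D- CLPs, and 1.98% and 2.14% passed between the populations after PBS and after CpG. The part of these markers in the Gimap differences between populations was not tested.

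Of the Bcl2 family, the regulators of apoptosis to which some Gimap proteins have been linked, 13 genes were measured and 0 passed by limma in each of the 4 comparisons, with 3 at an unadjusted p under 0.05 for CpG in Ly-6D- CLPs, 1 for CpG in Ly-6D+ CLPs, 0 between populations after PBS and 3 after CpG. Those nearest to passing for CpG in Ly-6D- CLPs were Bak1 (0.40, SE 0.11, adjusted p = 0.162), Bmf (-0.55, SE 0.16, adjusted p = 0.194) and Pmaip1 (0.52, SE 0.17, adjusted p = 0.218). Of 11 genes of lymphocyte quiescence and homing, 4 were higher in Ly-6D+ CLPs after PBS. Among them were the transcription factors Foxo1 (1.71, SE 0.15, adjusted p = 2.25e-04) and Klf2 (1.38, SE 0.22, adjusted p = 0.00840), and Il7r, the receptor for IL-7 (0.68, SE 0.14, adjusted p = 0.0365). After CpG 3 were higher and 1 lower. Over all genes, 1.98% passed between the populations after PBS and 2.14% after CpG. Of 17 lymphoid transcription factors, 5 were higher and 1 lower after PBS and 6 were higher after CpG, led by the B-lineage factors Ebf1 (3.64 and 3.85) and Pax5 (2.57 and 2.53). In Ly-6D- CLPs, CpG moved 0 of these 17 past the threshold (limma), with 5 at an unadjusted p under 0.05, the 3 with the smallest p being Id2, a repressor of E proteins, at 0.73, Ebf1 at -0.72 and Ets1 at -0.61.

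Other GTPase families of immunity, the interferon-inducible ones, were read for the same arrays. The median difference for CpG in Ly-6D- CLPs was 0.38 over 9 immunity-related GTPases, of which Gm4951 (2.53, SE 0.26, limma adjusted p = 0.00660) and Igtp (1.03, SE 0.18, adjusted p = 0.0416) rose, and 0.53 over 10 guanylate-binding proteins, of which 0 passed by limma and 4 had an unadjusted p under 0.05. In Ly-6D+ CLPs the medians were 0.70 and 0.67, against -0.06 for the Gimap genes.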

How the data were processed

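The deposited values are log2 levels from 11 arrays. Per the submitters' processing notes the authors used Partek and RMA, a method that corrects background, normalises quantiles and summarises probes. Software versions were not stated. Per the labels' protocols, 5 ng of RNA was amplified to cDNA and 5 µg of cDNA was labelled. Of 41345 probe sets, 23521 had exactly 1 gene symbol in the supplied table, 1814 had several and 16010 none, and only the first kind was used. All arrays were fitted together with limma 3.58.1 in R 4.3.3 (a mean for each of 4 groups, lmFit and eBayes defaults, 7 residual and 3.48 prior degrees of freedom). P-values were adjusted by Benjamini-Hochberg over 22180 genes, and those under 0.05 passed. SE is the moderated standard error. The fit was also run on simulated arrays with independent normal noise, which leaves out any likeness between replicates, and its outcome is not used here. Members, lists and motifs were chosen with earlier results of these data known. Named genes are all members, up to 3 genes of each list with the smallest p, the 5 neighbours on each side, Ly6d, and the 5 genes with the most similar profile. Cd3g and Flt3 lie outside this rule and were named as defining markers after their values were seen. Alternatives are listed in the closing section. Python 3.11.15, pandas 2.3.3 and matplotlib 3.10.9 made tables and figures.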

Additional observations from a re-analysis of the deposited data

How the results depend on the processing

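Each array was left out in turn, and further fits used the mean over the probe sets of a gene, each probe set by itself, no genes of the dimmest 33.3%, a variance trend with robust estimation, array weights, a further quantile normalisation, arrays centred on their medians, only the groups compared, an adjusted p below 0.10 and a replicate block. For CpG in Ly-6D- CLPs, the comparison that led to the choice of the family, the number of Gimap genes past the threshold, Gimap1 included, is a description: it was 2, against 1 with the mean of probe sets, 1 with the replicate block, 0 with only the groups compared, 3 with a variance trend (Gimap9 added) and 3 at 0.10 (Gimap5 added), and 0 to 3 when 1 array was left out (0 when the array left out was Ly-6D- CpG replicate 1 or replicate 2, or replicate 3 of the Ly-6D- PBS group). The count for the populations after CpG, 5 with Gimap1 included, was 4 with the mean of probe sets (Gimap1 lost), 6 with array weights or without dim genes, 7 with a variance trend or at 0.10 (Gimap3 and Gimap7 added), 3 with only the groups compared, which leaves fewer arrays to estimate the spread, and 4 to 6 when 1 array was left out. The counts of 1 after PBS, 0 for CpG in Ly-6D+ CLPs and 0 for the difference of effects were the same in all fits run, but the difference has no fit of only the groups compared. No member past the threshold in any fit changed direction. The number of all genes past the threshold for CpG in Ly-6D- CLPs was 121, against 425 with a variance trend, 236 without dim genes, 207 with array weights, 326 at 0.10 and 4 with only the groups compared, and 5 to 309 when 1 array was left out. Of the other comparisons, only the groups compared gave 0 against 6 (CpG in Ly-6D+ CLPs), 190 against 439 (populations after PBS) and 264 against 474 (after CpG), and a variance trend gave 18, 660 and 726. Replicate numbers recur across groups. Of 15 same-numbered pairs, 2 had deviations with a correlation over 0.1 (-0.03 to 0.18, median 0.04). Of 30 pairs with other numbers, 0 did (-0.13 to 0.09, median -0.04). For 8 of 11 arrays the closest array of another group had the same number. The labels state no pairing, so the main fit took the arrays as independent. Whether same-numbered arrays shared a source is not settled here, and the replicate block is the fit that allows for it. With the replicate block Gimap6 in Ly-6D- CLPs (-0.74) moved to an adjusted p of 0.0663 from 0.0412. Precision is limited by having 2 or 3 arrays a group, and no detection calls were used.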
